A study of Solanum lycopersicum with 28 samples.

Results

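The H3K36me3 peaks of 5 kb or longer were examined in leaves of M82 tomato (Solanum lycopersicum). They were selected on a measured value, as all peaks of the deposited H3K36me3 list on chromosomes 1 to 12 whose length was 5000 bp or more. This gave 4937 regions of the 155523 H3K36me3 peaks on these chromosomes (3.17%). The data were chromatin immunoprecipitation sequencing (ChIP-seq), in which an antibody recovers the DNA bound by a protein or by a modified histone. All plants were untreated wild type M82 of 4 weeks, kept at 24 °C under 16 h of light daily, and the tissue was leaf, a mixture of cell types. The 28 peak lists comprised 26 histone marks, RNA polymerase II (Pol2) and the Input, which is chromatin that went through no immunoprecipitation. The labels gave 1 library per target, so no value below has a replicate error. Wilson intervals cover counting only, and neighbouring peaks are not independent. Read totals were not in the lists, and the depth of each library is unknown.

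H3K36me3 is trimethylation of lysine 36 of histone H3. SET-domain methyltransferases that accompany elongating RNA polymerase II deposit it over the bodies of transcribed genes. In plants H3K4me1 also lies over gene bodies, whereas H3K4me3 and many acetylations mark the start of active genes. H3K9me2, placed by KRYPTONITE and related enzymes, marks silenced transposable elements in constitutive heterochromatin. In the following, a long peak is an H3K36me3 peak of 5 kb or longer, a flank is the 2 kb on either side of it, and a shorter peak is any other H3K36me3 peak on the 12 chromosomes. Peaks of the other lists were counted where their fold, the ratio of reads to the local background that the authors' peak caller gave, was above 1.5. A long peak is called touched by a list when at least 1 bp is shared.

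Few in number, the long peaks held 49.2 Mb of the 190.3 Mb in H3K36me3 peaks (25.8%), which is 6.13% of the 802 Mb of the chromosomes. Their length ranged between 5001 and 84648 bp with a median of 7509 bp (quartiles 5910 and 11109 bp), against a median of 634 bp in shorter peaks. There were 1503 long peaks of at least 10 kb, 341 of at least 20 kb and 17 of at least 50 kb. Their fold had a median of 2.14 (range 1.45 to 4.37), against 1.54 in shorter peaks. A q-value under 0.05 was reached by 4276 long peaks (86.6%), against 8316 shorter peaks (5.52%). Length, fold and q-value come from the list that was used for the selection and are given as a description. At the threshold itself, chr3:61450206-61455206 (5001 bp) was just inside with a fold of 2.21. Just outside were chr1:89981697-89986695 and chr6:11548166-11553164 (4999 bp each), with folds of 2.06 and 1.61. The first of these outside regions was 74.1% covered by H3K4me1 and the second 100% covered by H3K9me2, so that both kinds of region described below continue under 5 kb.

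Long peaks lay towards the chromosome ends. The outer 10% at each end of a chromosome, 20% of the length, held 2270 long peaks (46.0%), against 9.60% of the shorter peaks. On single chromosomes this share of long peaks ranged between 20.8% (chromosome 2) and 57.0% (chromosome 5). Their number per chromosome was lowest on chromosome 10 (280 peaks, 4.22 per Mb) and highest on chromosome 1 (629 peaks), while chromosome 2 had the highest density (9.33 per Mb). The median gap between neighbouring long peaks was 43665 bp, and 194 of 4925 gaps (3.94%) were under 2 kb. Another H3K36me3 peak lay within 2 kb of 1867 long peaks (37.8%), and such peaks covered 7.90% of the flank bases.

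Among all lists, H3K4me1 covered the long peaks most completely. Its peaks took up 86.2% of the bases in long peaks (70.4 to 91.7% on single chromosomes), against 26.7% of the flanks, 14.1% of the shorter peaks and 10.8% of the chromosomes. At least 50% of the length was covered by H3K4me1 in 4414 long peaks (89.4%, Wilson 95% interval 88.5 to 90.2%), and the same was found in 9.37% of all H3K36me3 peaks. H3K4me2, which the study counted among euchromatin marks and also linked to repressed genes, covered 39.6% of the bases in long peaks, against 12.9% in flanks and 12.9% in shorter peaks. It covered at least 50% of the length in 29.9% of the long peaks, beside 7.78% of all H3K36me3 peaks. With a q-value under 0.05 H3K4me2 covered 16.0% of the bases in long peaks, against 4.66% in flanks and 10.9% in shorter peaks. Its log2 ratio of long over shorter peaks was then 0.56, against 1.62 without that limit. H3K4me3, the mark of active gene starts, took up a smaller part of the length, with 10.4% of the bases in long peaks against 8.07% in flanks and 8.42% in shorter peaks. H3K23me3, which the study assigned to euchromatin, covered 8.05% of the bases in long peaks, against 3.32% in flanks and 9.47% in shorter peaks. It touched 93.8% of the long peaks, against 24.6% of the shorter peaks, which have less room to be touched. For each of these 4 methylations the long peaks exceeded their flanks on all 12 chromosomes. The excess of H3K4me3 turned into a small deficit (log2 ratio -0.070) when only peaks of at least 8 kb were taken. The lists also differed in how far their peaks extend. Among narrow lists the longest peak was 67724 bp for H3K4me1, 39716 bp for Pol2 and 25631 bp for H3K9ac. No other narrow list exceeded 4633 bp. Among broad lists H3K9me2 reached 278101 bp, and no other except H3K36me3 exceeded 12820 bp. These 4 lists and H3K36me3 carry no replicate tag in their names. The part of this in their coverage, here and below, was not tested.

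Averaged over the whole length, polymerase and acetylation were arranged the other way round. Pol2 peaks covered 12.9% of the bases in long peaks, against 41.2% of the flanks. They touched 4102 long peaks (83.1%), against 7.08% of the shorter peaks. At least 50% of the length was under Pol2 in 547 long peaks (11.1%), beside 3.2% of all H3K36me3 peaks. The 13 acetylations covered between 5.18% (H3K4ac) and 8.57% (H4K5ac) of the bases in long peaks, against 11.9% (H3K56ac) to 38.4% (H3K18ac) of the flanks. Each of the 13, and Pol2, was lower in long peaks than in their flanks on every chromosome. The log2 ratio of long peaks over flanks ran between -2.64 for H3K18ac and -0.84 for H3K56ac. Inside the long peaks acetylation lay at the ends. In the outermost of 20 equal parts H3K9ac occupied 40.7% and H3K27ac 44.8%, against 0.64% and 0.71% of the middle 20% of the length. Of the acetylations only H3K18ac was highest in the flanks (46.8%), as was Pol2 (52.9%), in steps of 200 bp. Each acetylation touched between 83.8% and 87.5% of the long peaks, against 6.83% to 15.2% of the shorter peaks, which have less room to be touched. H3K9ac covered at least 50% of the length in 0.385% of the long peaks, beside 3.92% of all H3K36me3 peaks. Against shorter peaks the acetylations differed little, with log2 ratios between -0.27 and 0.50 and no acetylation of the same sign on all 12 chromosomes.

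H3K27me3, the Polycomb mark of facultative heterochromatin, was sparse in the long peaks. It covered 1.06% of their bases, against 5.74% of the flanks, 0.69% of the shorter peaks and 6.38% of the chromosomes, so that it was sparse in shorter peaks too. The log2 ratio of long peaks over flanks was -2.43, -0.995 with all deposited peaks of the list and -4.91 with a q-value under 0.05. H3K27me3 covered at least 50% of the length in 0.081% of the long peaks, beside 0.594% of all H3K36me3 peaks. H3K27me2, a broadly spread mark of the same pathway, covered 27.1% of the bases in long peaks and 26.99% of the flanks, a log2 ratio of 0.01 that took either sign on 6 chromosomes each. With a q-value under 0.05 its list kept 1060 peaks, which covered 0.047% of the bases in long peaks against 0.18% of the flanks (log2 ratio -1.77). It covered at least 50% of the length in 8.1% of the long peaks, beside 41.2% of all H3K36me3 peaks.

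The 6 constitutive heterochromatin lists did not share a pattern. H3K9me2 covered 14.5% of the bases in long peaks, against 10.1% of the flanks, 70.0% of the shorter peaks and 41.8% of the chromosomes. At least 50% of the length was under H3K9me2 in 594 long peaks (12.03%), beside 72.6% of all H3K36me3 peaks. Among the 4276 long peaks with a q-value under 0.05 this share was 1.78% (76 peaks). H3K14me1 (17.2% in long peaks against 7.39% in flanks), H3K23me1 (19.8% against 9.56%) and H3K56me2 (13.8% against 7.18%) also exceeded the flanks on all 12 chromosomes. H3K56me1 was alike in long peaks (10.0%) and flanks (9.79%). H3K27me1, a mark of silenced repeats deposited by ATXR5 and ATXR6 in Arabidopsis, went the other way with 1.92% in long peaks against 15.8% in flanks, and was lower in long peaks on all 12 chromosomes. These directions of H3K14me1, H3K23me1, H3K56me2 and H3K27me1, and the values of these lists further below, rest on peaks that miss a q-value of 0.05. With that limit H3K14me1 kept 17 peaks, H3K23me1 18, H3K27me1 24, H3K56me1 10 and H3K56me2 42 on the chromosomes, and each list had 0% in long peaks and 0% in flanks. H3K9me2 kept 32764 peaks, with 12.8% in long peaks against 9.73% in flanks. Compared with shorter peaks, each of the 6 was lower in long peaks on every chromosome, with log2 ratios between -3.22 (H3K27me1) and -0.88 (H3K23me1).

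**Figure D1:**
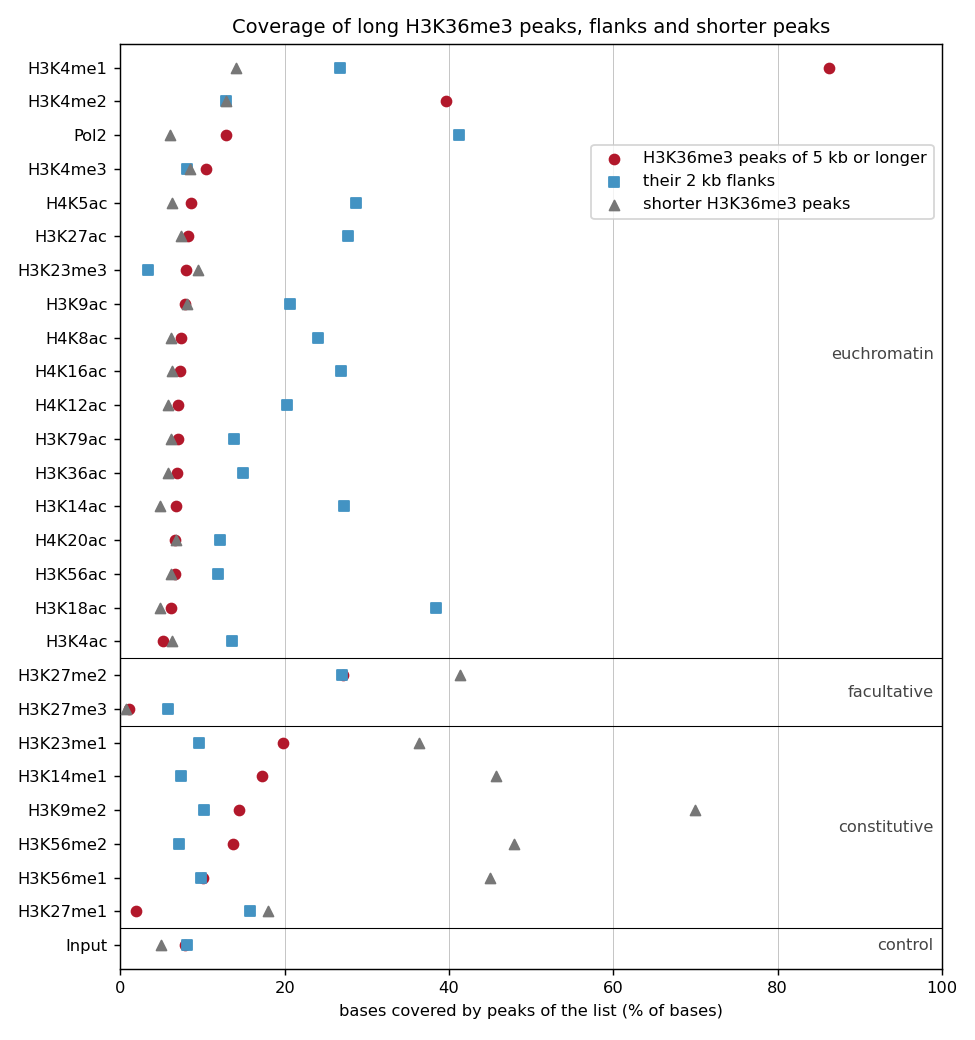
Percent of bases covered by the peaks of each list (rows, grouped by chromatin class) in H3K36me3 peaks of 5 kb or longer (circles), in their 2 kb flanks (squares) and in shorter H3K36me3 peaks (triangles). H3K4me1 stands far right in long peaks (86.2%, against 26.7% in flanks), Pol2 and the 13 acetylations have their highest values in the flanks, and H3K9me2 is highest in shorter peaks (70.0%).

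Whether the 2 chromatin classes differed was tested over the lists, with the classes as the study named them. The study placed marks in these classes partly by the distribution of these same ChIP-seq data along the chromosomes. Long and shorter peaks differ in that distribution, with 46.0% and 9.60% in the outer zones. A class difference of long over shorter peaks was therefore partly set in advance, and its p-value is no independent support. Long over shorter peaks, the mean log2 ratio was -1.96 ± 0.80 for constitutive heterochromatin (SD, n = 6 lists) and 0.43 ± 0.70 for euchromatin (SD, n = 18 lists), a difference of -2.39 (two-sided exact permutation test, p = 1.49e-05, the smallest it can give, Benjamini-Hochberg adjusted p = 2.97e-05 over 2 tests). Long peaks over flanks, it was 0.12 ± 1.60 for constitutive heterochromatin (SD, n = 6 lists) and -0.92 ± 1.29 for euchromatin (SD, n = 18 lists), and the difference of 1.04 did not pass (exact permutation test, p = 0.126, adjusted p = 0.126). These tests compare lists and treat them as independent, although the acetylation lists cover largely shared regions, and they carry no information on the variation between plants. The first difference took the opposite sign (2.92) in the 243 long peaks that no Input peak touches, of which 92.2% were covered by H3K9me2.

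The Input was measured in the same way. Its peaks, with a median of 118 bp, covered 7.90% of the bases in long peaks, against 8.11% of the flanks, 4.97% of the shorter peaks and 5.96% of the chromosomes. They touched 4694 long peaks (95.1%), against 24.5% of the shorter peaks, which have less room to be touched. With the longest Input peak at 1797 bp, a single one could not cover 50% of a long peak. When the bases under Input peaks were left out, the differences of the preceding paragraph were -2.26 (exact permutation test, p = 1.49e-05) and 1.16 (exact permutation test, p = 0.105).

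Taken one by one, the long peaks fell into 2 sorts by H3K4me1. It covered at least 75% of the length in 4363 long peaks, and 3234 of these were covered over at least 90%. In 516 long peaks it covered nothing, in none did it cover more than 0 and less than 10%, 7 lay between 10 and 50%, and 51 between 50 and 75%. H3K9me2 filled most of the remainder. The division at 50% used below was chosen after these values were seen, and the 2 sorts are described without a test.

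**Figure D2:**
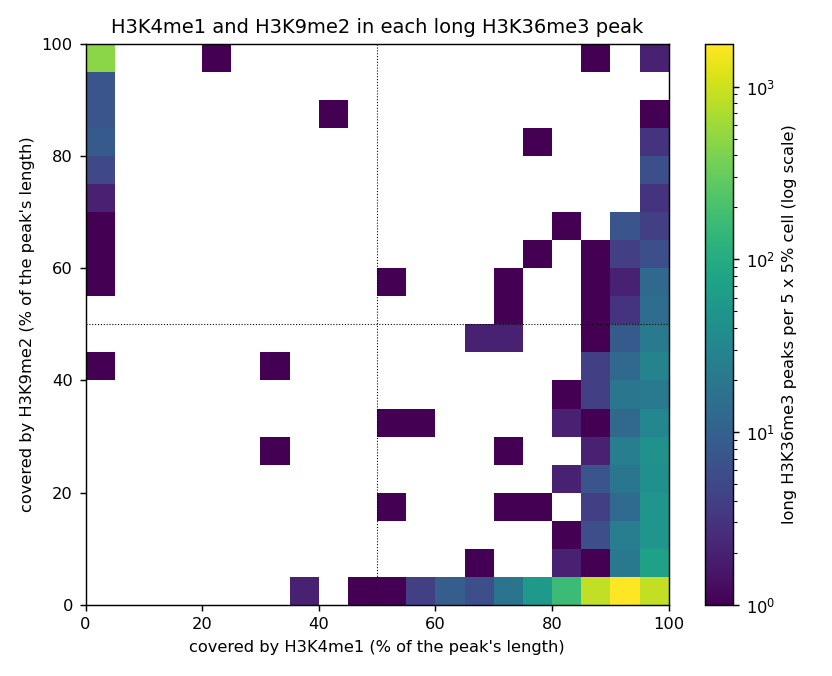
Number of long H3K36me3 peaks (colour, log scale) by the percent of their length covered by H3K4me1 (horizontal) and by H3K9me2 (vertical), in cells of 5 by 5%. Most peaks stand at the lower right, with high H3K4me1 and little H3K9me2, a second group stands at the upper left, with 516 peaks at 0% H3K4me1, and 77 have at least 50% of both.

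The 523 long peaks with H3K4me1 under 50% were mostly covered by H3K9me2. H3K9me2 covered 98.4% of their bases (95.4 to 99.97% on single chromosomes) and 87.7% of their flanks, and at least 50% of the length in 517 of them (98.9%). H3K56me2 covered 55.2%, H3K56me1 44.7%, H3K14me1 41.5%, H3K23me1 37.3% and H3K27me1 13.3% of their bases. In shorter peaks the values were, in the same order, 47.9%, 45.0%, 45.7%, 36.4% and 17.9%. H3K27me1 was lower in these long peaks than in their flanks (20.6%). A Pol2 peak touched 3 of them, an H3K4me3 peak touched 5, and 406 (77.6%) were touched by no acetylation. Of all long peaks 9.68% were touched by none. Single acetylations touched 6.83% to 15.2% of the shorter peaks, so peaks without a given acetylation were common there too. The share of shorter peaks touched by none is not given here. The median length of these 523 long peaks was 5881 bp and their median fold 1.63, 1.15% reached a q-value under 0.05, and 4.02% lay in the outer zone of a chromosome. An Input peak touched 57.0% of them, and Input covered 1.58% of their bases.

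The 4414 long peaks with H3K4me1 over at least 50% mostly carried H3K4me3 and Pol2 as well. An H3K4me3 peak touched 97.2% of them, a Pol2 peak 92.9%, and 3973 (90.01%) were touched by every one of the 13 acetylations. Of all long peaks 80.6% were touched by every acetylation. The share of shorter peaks touched by every acetylation is not given here, and single acetylations touched 6.83% to 15.2% of them. Among the shorter peaks, which have less room to be touched, H3K4me3 touched 7.87% and Pol2 7.08%. The part of length in these shares was not tested. H3K4me1 covered 93.8% of their bases (93.3 to 94.7% on single chromosomes). Their median length was 7819 bp and their median fold 2.17, 96.7% reached a q-value under 0.05, and 51.0% lay in the outer zone. H3K9me2 covered 7.08% of their bases, against 0.96% of their flanks. An Input peak touched 99.6% of them, and Input covered 8.46% of their bases, against 8.67% of their flanks. The sorts thus differed in fold, length, position and Input as well, and the part of these in the other values was not tested.

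By the division into types that used H3K9me2, Pol2 and H3K9ac, 593 long peaks (12.01%, Wilson 95% interval 11.1 to 12.9%) were covered over at least 50% by H3K9me2 and not by Pol2 or H3K9ac. Their median length was 6098 bp and their median fold 1.64, and H3K4me1 covered at least 50% of 76 of them. Pol2 or H3K9ac covered at least 50% of 554 long peaks (11.2%, Wilson 95% interval 10.4 to 12.1%), with a median length of 6813 bp and a median fold of 2.09. Both conditions held in 1 long peak. The other 3789 (76.7%, Wilson 95% interval 75.5 to 77.9%) met none of the conditions, with a median length of 7948 bp and a median fold of 2.18, and 99.9% of them were covered over at least 50% by H3K4me1. Of all H3K36me3 peaks, 72.6% were covered over at least 50% by H3K9me2, 3.2% by Pol2 and 3.92% by H3K9ac. The shares of the combined types among shorter peaks are not given here. The share of long peaks of the H3K9me2 type was highest on chromosome 6 (96 peaks, 21.7%) and lowest on chromosome 1 (43 peaks, 6.84%). Of the 39 that measured at least 20 kb, 15 lay on chromosome 6.

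The ends of the long peaks with H3K4me1 were compared with H3K4me3, to give them a direction where no gene model of this genome build was used. An end was counted as carrying H3K4me3 when a peak of that list touched the outer 20% of the long peak or the 1 kb beyond it. H3K4me3 was found at 1 end only in 3272 of the 4414 (74.1%), at both ends in 1008 (22.8%) and at no end in 134 (3.04%). The 3272 with H3K4me3 at 1 end, with a median length of 7549 bp, were turned so that this end came first. H3K4me3 itself, and the low level at the far end of marks that accompany it, follow from the turning and are no finding. H3K4me1 is another state of the same lysine, so the turning also favours a low level of H3K4me1 at the H3K4me3 end.

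Along the turned peaks the marks followed each other in order. Pol2 occupied 93.5% of the last 200 bp before the H3K4me3 end, 59.1% of the first of 20 equal parts and 10.8% at its lowest, in part 5. The acetylations shown, H3K9ac, H4K16ac and H3K27ac, occupied 92.4%, 91.6% and 92.3% of the first part, and H3K18ac 81.1%. H3K23me3 occupied 89.7% of the first part. H3K4me2 was highest in the second part (85.6%) and occupied 29.0% of the middle 20% of the length. H3K4me1 set in further inside, with 1.95% of the 200 bp before the H3K4me3 end, 12.2% of the first part, 53.1% of the second and 99.5% of the middle 20% of the length. Input was highest in the first part too, at 25.01%, against 6.54% of the middle 20% of the length.

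H3K4me1 was shifted against H3K36me3 in the direction set by H3K4me3. At the H3K4me3 end it began inside the long peak in 3198 of 3272 cases (97.7%), by a median of 571 bp (quartiles 465 and 681 bp). At the other end it passed the end of the long peak in 3198 cases (97.7%), by a median of 888 bp. The turning by H3K4me3 favours the start inside, and the part of the turning in the shift was not tested. In the 200 bp just beyond that end H3K4me1 still occupied 94.4%, and 20.5% at a distance of 1.8 to 2 kb. Taken over all 4414 long peaks with H3K4me1, 3625 (82.1%) were touched by a single H3K4me1 peak, and 119 (2.70%) lay wholly inside one. Both lists lacked the replicate tag that most other lists carried, and the 2 were called in different modes, H3K36me3 broad and H3K4me1 narrow.

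Beyond the far end a second zone of polymerase and acetylation followed. Pol2 occupied 27.1% of the 200 bp just beyond the far end and reached 72.6% at 1.4 to 1.6 kb. H3K18ac reached 75.3% at 1.2 to 1.4 kb, H3K27ac 59.4% at the same distance and H4K16ac 57.9% at 1.4 to 1.6 kb, while H3K9ac reached 29.9% and H3K4me3 10.9%, both at 1.8 to 2 kb. Over the whole 2 kb flank, Pol2 occupied 55.2% at the far end (47.0 to 60.1% on single chromosomes), against 37.0% at the H3K4me3 end (29.1 to 41.2%). H3K18ac occupied 57.2% at the far end (51.7 to 59.7%), against 28.1% at the H3K4me3 end (24.1 to 31.0%). Both were higher at the far end on all 12 chromosomes, whereas H3K9ac was lower there on all 12, with 15.9% at the far end against 27.3% at the H3K4me3 end, a direction that the turning by H3K4me3 favours. The Input moved in the same direction as Pol2, with 10.6% at the far end against 6.15% at the H3K4me3 end, and its part in the difference was not tested.

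These flank values changed little in the 2132 turned peaks that had a single H3K4me3 peak in the region and its flanks, a choice made after the data were seen. There H3K4me3 was 0% in the far flank, as the choice requires, and Pol2 occupied 53.6% of it, H3K18ac 55.98% and H3K27ac 44.8%. At the H3K4me3 end of the same peaks the values were 34.5% for Pol2, 26.9% for H3K18ac and 12.2% for H3K27ac.

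The repressive lists were also uneven around the turned peaks. H3K27me1 occupied 23.9% of the flank at the H3K4me3 end (21.5 to 27.1% on single chromosomes), against 5.98% of the flank at the far end (4.14 to 7.90%) and 0.43% of the middle 20% of the length. Within the flank it declined towards the long peak, with 32.4% at 1.6 to 1.8 kb and 2.27% in the last 200 bp. H3K27me3 likewise occupied 11.3% of the flank at the H3K4me3 end, against 1.38% at the far end. H3K9me2, H3K27me2, H3K56me1 and H3K56me2 were also higher in the flank at the H3K4me3 end. H3K23me1 went the other way, with 6.47% at the H3K4me3 end against 8.21% at the far end, and H3K14me1 had 5.03% against 4.63%. Input had 6.15% against 10.6%, and H3K4me1 extended into the far flank. The part of these and of the turning in the differences was not tested. H3K23me1 was highest inside the long peaks, at 20.4% in a part near the far end, and H3K9me2 reached 5.40% in the interior, against 0.061% in the 200 bp before the H3K4me3 end.

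**Figure D3:**
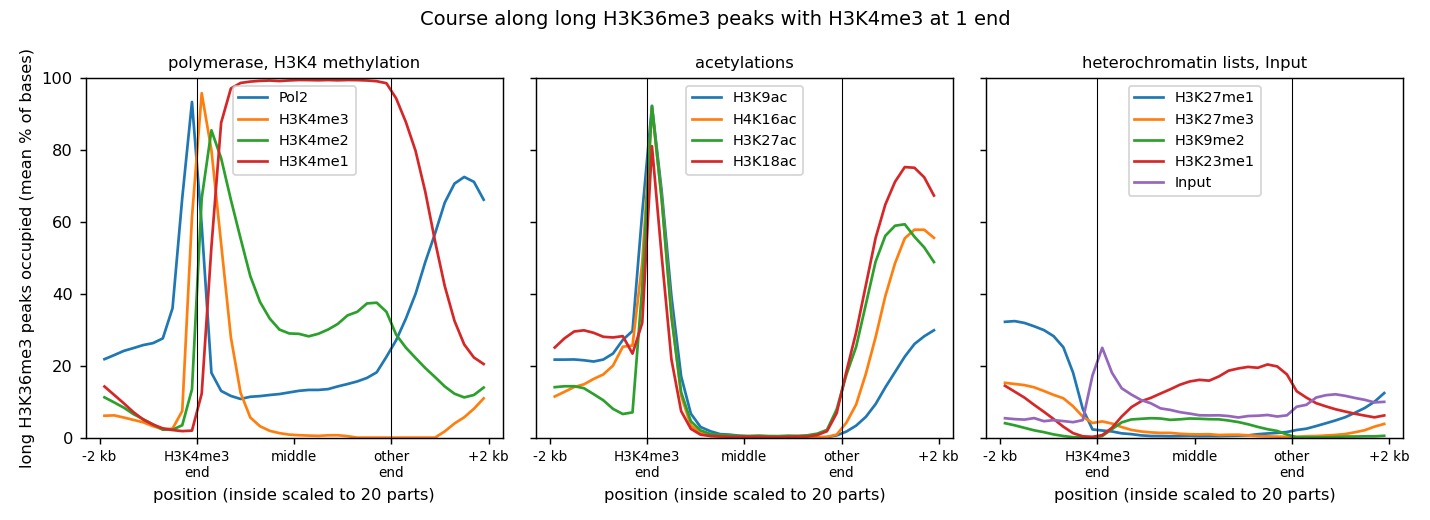
Mean percent of bases occupied along the 3272 long H3K36me3 peaks with H3K4me3 at 1 end, turned so that this end is on the left, in 20 equal parts inside and in steps of 200 bp over 2 kb outside; the vertical lines are the peak's ends. Pol2 peaks at 93.5% just before the H3K4me3 end and again at 72.6% beyond the far end, H3K4me1 fills the interior and passes the far end, H3K18ac returns beyond the far end (75.3%) while H3K9ac stays lower (29.9%), and Input is highest in the first part (25.01%).

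Among the long peaks with H3K4me1, the covering marks changed with length. From 5 to 6 kb (n = 1033), 6 to 8 kb (n = 1254), 8 to 10 kb (n = 675), 10 to 20 kb (n = 1128) and at least 20 kb (n = 324), H3K9me2 covered 0.50%, 2.18%, 2.98%, 7.40% and 17.3% of the bases. The share touched by H3K9me2 was 1.74%, 6.70%, 10.8%, 26.7% and 68.2% in the same order. A longer region has more room to be touched, and its ends make up a smaller part of its bases. The part of this in the H3K9me2 values was not tested. In the flanks H3K9me2 also increased with length, with 0.59%, 0.82%, 0.83%, 1.07% and 2.62% over the same classes. H3K23me1 covered 28.2% in the longest class, against 10.1% in the shortest, H3K14me1 26.4% against 6.76%, and H3K56me2 19.5% against 2.87%. H3K27me1 did not share this course and covered 0.38% in the longest class against 1.47% in the shortest.

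The marks of active gene starts took up a smaller share of the longer regions. H3K4me3 covered 3.88% of the bases in the longest class, against 20.7% in the shortest, although it touched 95.4% of the longest and 98.1% of the shortest. Pol2 covered 6.81% in the longest class against 21.2% in the shortest, and H3K9ac 2.37% against 17.8%. The ends of a longer region make up a smaller part of its bases, and the part of this in these shares was not tested. H3K4me2 was nearly level, between 42.1% and 45.5% over the 5 classes. Of the longest class 29.0% lay in the outer zone of a chromosome, against 59.1% of the shortest, so that length and position changed together.

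**Figure D4:**
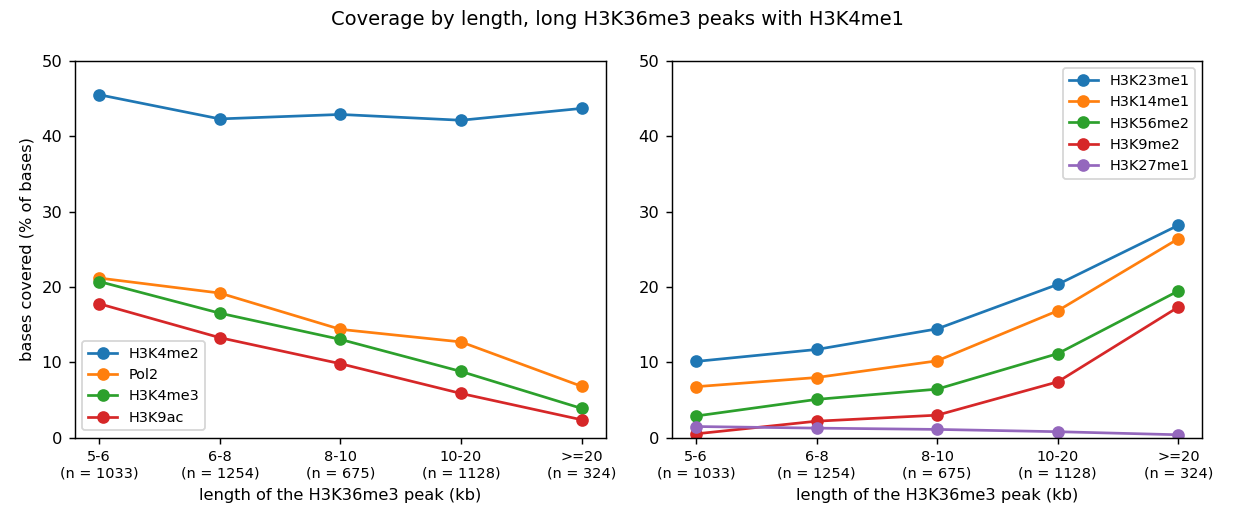
Percent of bases covered by lists of euchromatin (left) and constitutive heterochromatin (right) in the 4414 long H3K36me3 peaks with H3K4me1 over at least 50%, by length class, each point being 1 list in 1 class. H3K9me2 covers 17.3% in the class of at least 20 kb and 0.50% in the class of 5 to 6 kb, H3K27me1 stays low, and H3K4me2 is nearly level.

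The H3K9me2 in these regions lay mostly in separate patches inside them. In the 697 long peaks with H3K4me1 that H3K9me2 touched (15.8%), 1057 H3K9me2 peaks were found, and 1035 of them (97.9%) lay wholly inside the long peak. Their median length was 2223 bp and the longest measured 18095 bp. A single long peak held up to 6 of them.

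The longest region, chr7:22050330-22134977 (84648 bp, fold 2.62), was covered by H3K4me1 over 99.05% and by H3K9me2 over 24.5% of its length, with 50.6% H3K4me2, 1.11% H3K4me3 and 0.54% Pol2. The second, chr9:2777345-2854926 (77582 bp), had 99.2% H3K4me1 and 51.2% H3K23me1 but 4.34% H3K9me2. The third, chr12:25757414-25828814 (71401 bp), had 99.1% H3K4me1 and 47.6% H3K9me2. The following regions in the order of length lay on chromosome 6 and were of the other sort. These were chr6:15439041-15509593 (70553 bp, fold 1.73), chr6:5260159-5326802 (66644 bp) and chr6:15260557-15326138 (65582 bp), each covered by H3K9me2 over 100% and by H3K4me1, Pol2 and H3K4me3 over 0% of its length. Their −log10 q-values were 0.69, 0.73 and 0.66, so that none of them reached a q-value of 0.05.

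The 4 highest folds were found in regions where H3K4me1 and H3K9me2 overlapped. The region chr4:43135722-43142515 (6794 bp, fold 4.37) was covered by H3K4me1 over 100% and by H3K9me2 over 98.0%, with no Pol2, H3K4me3 or acetylation. In chr1:82426886-82434233 (7348 bp, fold 3.74) the values were 95.2% H3K4me1 and 75.2% H3K9me2, in chr2:1283159-1332864 (49706 bp, fold 3.61) 98.7% and 79.7%, and in chr6:39243301-39254882 (11582 bp, fold 3.14) 96.0% and 96.2%. All 4 belong to the 77 long peaks (1.56%) in which both marks covered at least 50% of the length. This number was 320 at an overlap of 25% and 14 at 75%. Of all H3K36me3 peaks, 9.37% were covered over at least 50% by H3K4me1 and 72.6% by H3K9me2. The share covered by both is not given here, and whether such overlap is particular to long peaks or to high folds was not tested. The H3K36me3, H3K4me1 and H3K9me2 lists all lacked the replicate tag.

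Among the long peaks of the Pol2 or H3K9ac type, the longest was chr3:58162002-58215036 (53035 bp), with 53.1% Pol2, followed by chr11:36745549-36796384 (50836 bp), with 74.2% Pol2. H3K9ac covered 1.24% of the first and 1.83% of the second, and H3K4me1 98.7% and 99.2%. The region that met both conditions was chr1:87031562-87041009 (9448 bp), with 95.8% Pol2, 96.6% H3K4me1 and 62.0% H3K9me2, and with no H3K4me3 or H3K9ac.

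Long peaks of the most similar lists coincided in part. Of the 4937 long H3K36me3 peaks, 4111 (83.3%) touched an H3K4me1 peak of 5 kb or longer, against 1.45% of the shorter H3K36me3 peaks, and 4273 of those 5397 H3K4me1 peaks (79.2%) were touched in turn. Of the long H3K36me3 peaks 440 (8.91%) touched a Pol2 peak of 5 kb or longer, against 1.32% of the shorter ones, and 436 of 2179 such Pol2 peaks (20.01%) were touched in turn. With H3K9me2 peaks of 30 kb or longer the count was 225 long H3K36me3 peaks (4.56%), against 8.73% of the shorter ones, and 128 of 868 H3K9me2 peaks (14.7%). Shorter peaks have less room to be touched than long ones, and the part of length in these shares was not tested.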

How the data were processed

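Leaf chromatin of M82 tomato was immunoprecipitated for 27 targets, each with 1 library, and an Input library was added. Each library started from 10 ng of DNA, with single reads of 75 bp. As the study's methods state, the authors used Trimmomatic 0.38 for trimming and Bowtie2 2.3.5 for alignment to the M82 genome (version 1), discarded duplicates and poorly mapped reads, and called broad and sharp peaks with MACS2 2.2.7.1 at a p-value of 0.05. By their format, 11 deposited lists are broad and 17 narrow. In each deposited list the authors gave the fold (ratio of pileup to local background) and the −log10 of the p-value and of the q-value, and in broad lists these are averages over a peak. The study describes 2 biological replicates per condition. Whether the 5 target lists without a replicate tag (H3K36me3, H3K4me1, H3K9ac, H3K9me2, Pol2) pool them, and which control each list was called against, is not given in the study's methods or the labels. The name of the H3K4me1 list also mentions the input, and the peaks of the 2 lists differ.

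H3K36me3 peaks were used as deposited (155887, of which 364 lay outside chromosomes 1 to 12) and peaks of the other lists were kept at a fold above 1.5. Covered bases were summed over merged peaks, chromosome length being the largest peak end in any list. Log2 ratios had 0.01 percentage points added to both values. The exact permutation tests were two-sided, over 18 euchromatin lists (H3K36me3 left out) and 6 constitutive heterochromatin lists, with Benjamini-Hochberg adjustment over both. Calculations used Python 3.11.15, numpy 2.4.6, pandas 2.3.3 and scipy 1.17.1, and were tested on simulated data. Regions were named by rule (the 6 longest, the 4 of highest fold, the 2 longest of each type, and those at the length threshold), whereas lists were named with their class. The members and lists were chosen with earlier results of these data known. Alternatives were length minimums of 4 and 8 kb, other peak filters, flanks of 1 and 5 kb, other overlaps, chromosome zones and subsets of lists. No genome or gene models of this build were used here, so no sequence and no gene is named.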

Additional observations from a re-analysis of the deposited data

Results flagged for a closer look

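Among the 6 constitutive heterochromatin lists, the log2 ratio of long H3K36me3 peaks over their flanks was far lower for H3K27me1 (-3.03) than for the next list, H3K56me1 (0.04). The gap made up 0.722 of the range of the 6 values, above the critical value of 0.625 of Dixon's test, which chance passes in about 1 of 20 groups. The 6 values are different marks and not replicates. With a q-value under 0.05 for the other lists, H3K27me1 and the H3K14me1, H3K23me1, H3K56me1 and H3K56me2 lists had 0% in long peaks and 0% in flanks, and the gap was not there.

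Outside the 12 chromosomes the H3K36me3 list held 18 peaks of 5 kb or longer. The Input list held 0 there, which is no contrast, since it is narrow and its longest peak on the chromosomes measured 1797 bp. Of the 18 peaks, 8 lay on the chloroplast sequence, with folds of up to 1.27, and 10 on unplaced sequences, with folds between 1.60 and 1.88. H3K9me2 covered at least 50% of the length in 10 of the 18 and H3K4me1 in 0. They entered no comparison.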

How the results depend on the processing

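The difference of constitutive heterochromatin minus euchromatin, long over shorter peaks (-2.39), kept its sign and its side of the threshold except in 2 cases. It was 2.92 in the 243 long peaks that no Input peak touches, which are mostly of the H3K9me2 sort, and -2.99 over broad lists only (exact permutation test, p = 0.0714, the smallest that 6 against 2 lists can give). No setting filtered the shorter peaks by their own fold or q-value. Of them 5.52% reached a q-value under 0.05, against 86.6% of the long peaks, so called long peaks were never compared with called shorter ones alone. The difference over flanks (1.04) passed 0.05 unadjusted with a length minimum of 8 kb (1.68, exact permutation test, p = 0.0452), with flanks of 1 kb (1.24, p = 0.0429, exact) and in the long peaks without an Input peak (1.35, p = 0.00822, exact), and was 0.42 with flanks of 5 kb.

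The share covered by H3K4me1 (89.4%) was 81.96% with a minimum of 4 kb, 96.0% with 8 kb, 99.9% in long peaks with a q-value under 0.05, 7.41% in those without an Input peak, 88.4% at an overlap of 75%, 99.1% in the outer zones and 81.2% in the central 80% of the chromosomes. The share covered by H3K9me2 (12.03%) was, in the same order, 19.0%, 6.68%, 1.78%, 92.2%, 10.7%, 1.23% and 21.2%, and 17.0% at an overlap of 25%. The share covered by Pol2 or H3K9ac (11.2%) was 8.71% with 8 kb, 12.4% with the q-value, 0% without an Input peak, 18.4% at 25%, 7.62% at 75%, 13.4% in the outer zones and 9.41% in the central part. The share covered by none of them (76.7%) was 69.5% with 4 kb, 84.7% with 8 kb, 85.8% with the q-value, 7.82% without an Input peak, 65.0% at 25%, 81.7% at 75%, 85.4% in the outer zones and 69.4% in the central part.

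Of the log2 ratios with 1 sign on all 12 chromosomes, H3K4me3 over flanks was -0.070 with 8 kb and H3K27me3 long over shorter -1.93 with a q-value under 0.05 for the other lists. With that limit H3K14me1, H3K23me1, H3K27me1, H3K56me1 and H3K56me2 had no base in long peaks or flanks, so that their ratios over flanks were 0, and both class differences there (-1.43 over shorter peaks and 0.92 over flanks) rest for these lists on 10 to 42 peaks each. In the 243 long peaks without an Input peak, H3K23me3 (-0.38) and H3K27me3 (2.14) over flanks, and Pol2 (-4.46), H3K4me1 (-1.24), H3K4me2 (-2.50), H3K27me3 (-3.53), H3K9me2 (0.40), H3K23me1 (0.025), H3K56me2 (0.15) and Input (-8.96) over shorter peaks changed sign. The last follows from the choice, and the cause of the others was not tested. Leaving out bases under Input peaks, added after the data were seen, changed no call of the tests. No paired analysis was possible because each target has 1 library. The unknown depth and the caller's modes limit what a missing peak can show.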
